A study of Mus musculus with 3 samples.

Results

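Cxcl13, Cxcl12 and Ackr3, a pair of homeostatic chemokines and a scavenging receptor, were followed in single stromal cells of the mouse lymph node (LN). Their rows were taken by gene symbol, 3 of the 51912 gene rows in the count tables, and each symbol had 1 row. In GRCm38, Cxcl13 (ENSMUSG00000023078) spans chr5:95956951-95961068, Cxcl12 (ENSMUSG00000061353) chr6:117168535-117181367 and Ackr3 (ENSMUSG00000044337) chr1:90203980-90216751, each on the plus strand. The UMI counts are of whole genes and do not separate exons, introns or UTRs. Droplet 3′ sequencing (10x Genomics) had been run on sorted cells, and each unique molecular identifier (UMI) stands for 1 captured RNA molecule, so counts of the 3 genes need no scaling by length.

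All libraries were made from LNs of C57BL/6 mice labelled CXCL13-TdTomato+, injected with antigen as immunocomplexes (IC). The 2 libraries of the 2-IC group came from mice that received 2 ICs, 7 days and 24 h before analysis, and the 1 library of the 1-IC group from mice that received 1 IC at 24 h. Cells were sorted as live, podoplanin (PDPN)+, CD31-, CD45- and TdTomato+. The red reporter is driven by a Cxcl13 transgene in every group, so the gate itself favours cells in which Cxcl13 is or was active, and no library of unsorted stroma or of mice without IC was analysed here. LNs of several mice were pooled, so each library counts as 1 sample and barcodes within it are not replicates. With 1 library in the 1-IC group, the groups were set side by side without a test.

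CXCL13 binds CXCR5 and draws B cells and follicular helper T cells into the follicle. It is made by follicular dendritic cells (FDCs) and other follicular reticular cells, and its expression in LNs depends on lymphotoxin and the non-canonical NF-κB pathway. CXCL12 binds CXCR4 and is made by reticular cells of the germinal centre dark zone, the T cell zone and the medulla, while ACKR3 binds CXCL12 and removes it without G protein signalling.

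The sequence just upstream of the start of each chemokine gene is shown because the results turn on how the levels of these 2 genes depart from one another. Both are the 250 bases before the RefSeq start (GRCm38.p6, plus strand, written 5′ to 3′), chr5:95956689-95956938 for Cxcl13 and chr6:117168285-117168534 for Cxcl12. Capitals mark the TATA motif TATAAA and the GC box GGGCGG, searched on both strands.
Cxcl13: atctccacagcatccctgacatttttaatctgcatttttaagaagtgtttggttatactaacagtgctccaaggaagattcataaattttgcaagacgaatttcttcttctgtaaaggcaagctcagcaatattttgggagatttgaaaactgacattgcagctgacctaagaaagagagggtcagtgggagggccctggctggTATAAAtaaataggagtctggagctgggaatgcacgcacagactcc
Cxcl12: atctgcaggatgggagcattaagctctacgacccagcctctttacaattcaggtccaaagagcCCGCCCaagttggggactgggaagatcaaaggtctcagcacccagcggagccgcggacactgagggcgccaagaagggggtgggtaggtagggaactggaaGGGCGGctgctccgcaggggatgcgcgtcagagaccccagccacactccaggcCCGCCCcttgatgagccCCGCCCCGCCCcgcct

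The Cxcl13 window held 1 TATA motif, which begins 46 bases before the start, and no GC box, with a GC content of 42%. The Cxcl12 window held 5 GC boxes, 2 of them overlapping by a base, and no TATA motif, with a GC content of 64.4%. Of 32851 windows of the same length, 12.4% held the TATA motif and 32.7% a GC box. The Ackr3 window held 1 TATA motif and 1 GC box. A match describes these letters only, and binding was not measured.

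Across the series 5486 barcodes were deposited, and 2133 of them were taken as stromal: at least 200 genes, at most 10% mitochondrial UMIs, no count of any of 13 genes of contaminating cells, and at least 2 of 8 stromal genes. These were 1488 barcodes in 2-IC replicate 1, 372 in 2-IC replicate 2, with 273 for the 1-IC library, with a median of 4770, 15078.5 and 6594 UMIs. The deeper library, 2-IC replicate 2, stood apart: 95 of its barcodes formed a cluster with none from the other libraries, and 166 of the 212 barcodes in another cluster were its own. It also shared 76 barcode sequences with 2-IC replicate 1, 14 of them stromal in both, and 2 barcodes were shared between 2-IC replicate 1 and the 1-IC library. Counts were therefore thinned to 2000 UMIs per barcode where barcodes are compared, which kept 1296, 339 and 246 stromal barcodes, and results were also computed without each library and without shared barcodes. The range of Cxcl13 over libraries was wide and that of Cxcl12 was narrow. Without shared barcodes the mean over libraries was 10111 CPM for Cxcl13 and 6656 CPM for Cxcl12, against 10248 and 6570 CPM with them. Without 2-IC replicate 2 the means were 12789 and 6618 CPM.

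Cxcl13 and Cxcl12 were among the abundant RNAs of these cells, and Ackr3 was rare. In UMIs summed over stromal barcodes, Cxcl13 stood at 9348 CPM (UMIs of the gene as a share of all UMIs in the sum, on the usual scale) in 2-IC replicate 1, 5166 CPM in 2-IC replicate 2 and 16229 CPM in the 1-IC library. Cxcl12 stood at 7447, 6473 and 5789 CPM in the same order. Cxcl13 was thus highest in the 1-IC library and Cxcl12 lowest there, and the order of the chemokines differed between the 2-IC libraries. The Cxcl13 to Cxcl12 ratio was 1.26 and 0.798 in the 2-IC libraries and 2.80 in the 1-IC library. The 1-IC level of Cxcl13 was 1.74 times that of 2-IC replicate 1 and 3.14 times that of 2-IC replicate 2, whereas the 2-IC libraries differed by 1.81 times. Over the 3 libraries the means were 10248 ± 5586 CPM (SD, n = 3) for Cxcl13 and 6570 ± 833 CPM (SD, n = 3) for Cxcl12.

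Ackr3 had 92 UMIs in 81 barcodes, 21 UMIs in 17 barcodes and 8 UMIs in 8 barcodes in the respective libraries. This came to 11.1 CPM (exact Poisson 95% interval 8.95 to 13.6), 3.74 CPM (2.31 to 5.71) and 4.24 CPM (1.83 to 8.35). These intervals, like the binomial ones below, cover counting error only. The intervals of 2-IC replicate 2 and the 1-IC library overlap each other, and both lie below that of 2-IC replicate 1. Both chemokines were far above the receptor in every library.

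At 2000 UMIs per barcode, Cxcl13 was detected in 89% (exact binomial 95% interval 87.1 to 90.6%) of barcodes in 2-IC replicate 1, 77.9% (73.1 to 82.2%) in 2-IC replicate 2 and 90.7% (86.3 to 94%) in the 1-IC library. Cxcl12 was detected in 95.8%, 91.7% and 91.5%, and Ackr3 in 1.70% (22 barcodes), 0.885% (3 barcodes) and 0.407% (1 barcode). Without thinning, Cxcl13 was detected in 94.4%, 91.9% and 94.9%, Cxcl12 in 97.8%, 97% and 92.7%, and Ackr3 in 5.44%, 4.57% and 2.93%. Both chemokines were therefore read in most sorted cells, and Ackr3 in few. Free RNA was gauged from barcodes with at least 2 lymphocyte genes and no stromal gene, which should lack both chemokines. At 1000 UMIs per barcode, Cxcl13 was read in 20.6%, 10.6% and 10.3% of those barcodes, against 79.5%, 66.7% and 84.7% of stromal barcodes. For Cxcl12 the shares were 25%, 12.8% and 2.17% against 92.7%, 88.3% and 86.9%, and both chemokines lay well above this background in stromal barcodes of every library. The lymphocyte barcodes numbered 160, 47 and 184, with a median of 3075, 5929 and 3358 UMIs before thinning. Ackr3 was read in 0 of the 160 lymphocyte barcodes of 2-IC replicate 1, which allows a share of up to 1.88% by a floor of 3 counts (exact binomial 95% upper limit 2.28%), and in 0.92% of the stromal ones, so that its share was not distinguishable from background at this depth.

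The chemokines were spread over cells in different ways. The median barcode of 2-IC replicate 1 held 6 Cxcl13 UMIs per 2000, with a maximum of 179. In 2-IC replicate 2 the median was 3 and the maximum 179, and in the 1-IC library 11 and 247. For Cxcl12 the medians were 15, 12 and 11.5 and the maxima 66, 47 and 71. Cxcl13 was thus skewed toward a few very high barcodes, while Cxcl12 was even. The 10% of barcodes with the most Cxcl13 held 53.6%, 56.5% and 46.9% of its UMIs, and the 10% with the most Cxcl12 held 23%, 22.3% and 26.9%.

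Most barcodes held both chemokines, and the highest levels of one came with low levels of the other. At 2000 UMIs, 84.8% (82.7 to 86.7%) of barcodes in 2-IC replicate 1 had a UMI of both, 70.8% (65.6 to 75.6%) in 2-IC replicate 2 and 82.5% (77.2 to 87.1%) in the 1-IC library. Barcodes with Cxcl13 alone made up 4.17%, 7.08% and 8.13%, and those with Cxcl12 alone 11%, 20.9% and 8.94%. Across barcodes, Spearman's rho between the chemokines was -0.39 (n = 1296), -0.29 (n = 339) and -0.48 (n = 246). These values describe barcodes that share a library and a fixed total of UMIs, in which a very high count of one gene leaves fewer UMIs for the rest.

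The relation was not a straight exchange. In barcodes with 0 Cxcl13 UMIs, the median of Cxcl12 was 17, 14 and 16 UMIs in the 3 libraries, and in those with 1 to 4 Cxcl13 UMIs it was 18, 15 and 15. It was 15, 11 and 14 at 5 to 19 Cxcl13 UMIs and 10.5, 5 and 9 at 20 to 49. In barcodes with 50 or more Cxcl13 UMIs the median of Cxcl12 was 1 UMI in 2-IC replicate 1 (n = 114), 0 in 2-IC replicate 2 (n = 12) and 3 in the 1-IC library (n = 45). Cxcl12 was thus nearly level over the lower range of Cxcl13 and low at its upper end. A median of 1 UMI is at the floor of what thinned counts can show.

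**Figure D1:**
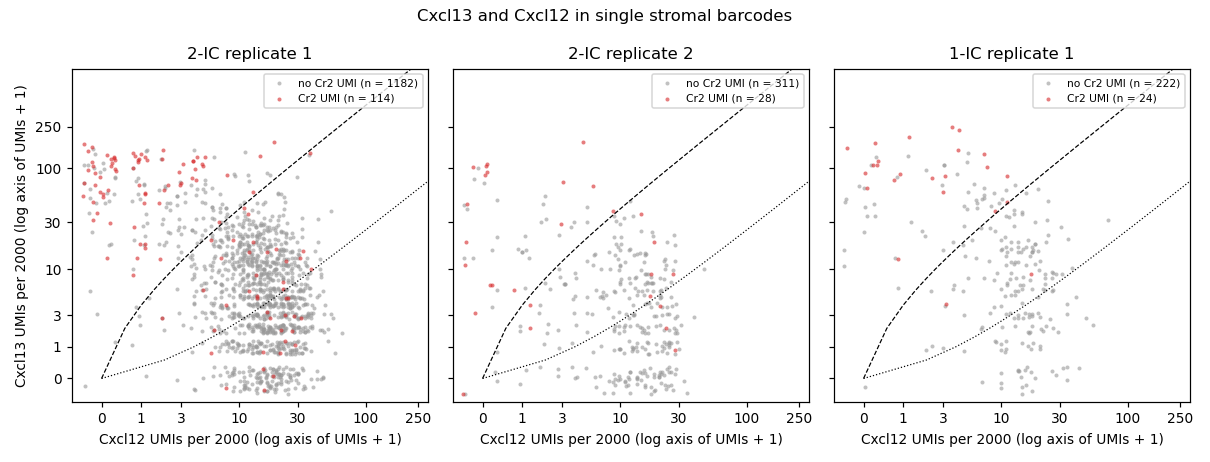
UMIs of Cxcl13 (vertical) against Cxcl12 (horizontal) per 2000 UMIs in each stromal barcode of the 3 libraries, on log axes of UMIs + 1 with a small random offset. Points are red where a UMI of Cr2 was read in the full counts, and the dashed and dotted lines mark 4 times as many UMIs of Cxcl13 or of Cxcl12. Most red points lie above the dashed line, where points with at least 5 UMIs of both genes together are Cxcl13-dominant barcodes. The dense group at 10 to 30 Cxcl12 UMIs reaches down to 0 Cxcl13 UMIs.

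Barcodes with at least 5 UMIs of the pair were put in 3 classes: Cxcl13-dominant (at least 4 times as many Cxcl13 as Cxcl12 UMIs), Cxcl12-dominant (at least 4 times as many Cxcl12 UMIs) and mixed. Of 1285 such barcodes in 2-IC replicate 1, 188 (14.6%, 12.7 to 16.7%) were Cxcl13-dominant, 564 (43.9%) mixed and 533 (41.5%, 38.8 to 44.2%) Cxcl12-dominant. Of 317 in 2-IC replicate 2, 45 (14.2%, 10.5 to 18.5%) were Cxcl13-dominant, 115 (36.3%) mixed and 157 (49.5%, 43.9 to 55.2%) Cxcl12-dominant. Of 242 in the 1-IC library, 69 (28.5%, 22.9 to 34.6%) were Cxcl13-dominant, 105 (43.4%) mixed and 68 (28.1%, 22.5 to 34.2%) Cxcl12-dominant. The share of Cxcl13-dominant barcodes was close in the 2-IC libraries and higher in the 1-IC library, a difference with 1 library on one side and no test. The classes are limits set on a range: between 3 and 5 times lay 37, 7 and 12 barcodes around the Cxcl13 limit and 122, 29 and 21 around the Cxcl12 limit.

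Cr2, the complement receptor by which FDCs hold ICs, was read mostly where Cxcl13 led. The study also measured CR2 on B cells, at a lower density, and the part of B cell RNA in these Cr2 UMIs was not tested. A Cr2 UMI was found in 72 of 188, 17 of 45 and 22 of 69 Cxcl13-dominant barcodes, against 18 of 533, 3 of 157 and 0 of 68 Cxcl12-dominant barcodes. Under the stromal gate, more than 60% of the Cxcl13-dominant barcodes of each library had no Cr2 UMI. This share depends on the gate. Without it, 196, 50 and 87 barcodes were Cxcl13-dominant, and 117, 28 and 48 of them had no Cr2 UMI. The gate thus left out Cxcl13-dominant barcodes, mostly ones with Cr2, while the Cxcl12-dominant counts stayed at 533, 157 and 68. Among barcodes without Cr2, 116, 28 and 47 were Cxcl13-dominant, or 9.91%, 9.59% and 21.6% of those with 5 UMIs of the pair. Their rho between the chemokines was -0.31, -0.25 and -0.38. Without Cr2+ barcodes the negative relation was smaller and of the same sign in each library.

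Clustering with the 3 genes and 4 others (Fcgr2b, Fcer2a, Cd200 and H2-Aa) left out of the variable genes gave 9 clusters, used here as a description of where the 3 genes lay. The cluster with FDC markers (FDC-like, led by Cr2, Fabp5 and Serpina1e) had the most Cxcl13, 42250 CPM in 2-IC replicate 1, 28988 CPM in 2-IC replicate 2 and 46449 CPM in the 1-IC library, and the least Cxcl12, 2011, 1101 and 2284 CPM. Its 120, 26 and 43 barcodes carried 42.2%, 34.6% and 52.7% of all Cxcl13 UMIs and 2.52%, 1.05% and 7.27% of all Cxcl12 UMIs. Of its barcodes in a class, 86.2%, 90.9% and 82.5% were Cxcl13-dominant.

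Next came cluster 4, led by Igha, Hamp2, Timd4 and Tnfsf11 (the cytokine RANKL), which no marker list named. Its Cxcl13 was 15734, 12036 and 20939 CPM and its Cxcl12 4070, 3780 and 2991 CPM. The ranges of Cxcl13 in the FDC-like cluster and in cluster 4 did not overlap over libraries, and neither did those of Cxcl12. The share of all genes that do not overlap between these clusters was not computed, so this describes the levels only. In this cluster 39.2%, 38.1% and 63.2% of barcodes were Cxcl13-dominant.

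In the other clusters the mean of Cxcl12 over libraries was the higher or nearly equal one, except in the small Interferon-response-like cluster, where Cxcl13 led in the 1-IC library (11936 against 4132 CPM) and not in 2-IC replicate 1 (8050 against 8234 CPM). In cluster 3, Cxcl13 was above Cxcl12 in 2-IC replicate 2 (3341 against 2251 CPM) and the 1-IC library (7859 against 6012 CPM), and below it in 2-IC replicate 1. In decreasing order, Cxcl13 was 9993 ± 2748 CPM (SD, n = 2) in the Interferon-response-like cluster, 5328 ± 964 CPM (n = 3) in MedRC-like cells (medullary reticular cell markers), 5067 ± 2440 CPM in cluster 3, 4122 CPM in cluster 7 (1 library), 4017 ± 2980 CPM in TBRC-like cells (markers of reticular cells at the border of T and B cell zones), 2808 ± 685 CPM in cluster 0 and 2563 ± 410 CPM in cluster 5. From MedRC-like cells down, neighbours in this order differed by less than the larger of their SDs. Cxcl12 was 9508 ± 1593 CPM in cluster 5, 8259 ± 795 CPM in TBRC-like cells, 8095 ± 2039 CPM in MedRC-like cells, 7221 ± 2889 CPM in cluster 0, 6183 ± 2901 CPM in the Interferon-response-like cluster, 5061 CPM in cluster 7 and 4883 ± 2287 CPM in cluster 3, and these neighbours did not differ beyond the larger SD either. Cluster 5 and cluster 7 were mostly or wholly of 2-IC replicate 2, and cluster 3 (led by Iglc1, Lyz1 and Ighg1) had a median of 1373 UMIs and genes of blood cells among its leading genes. Some sums held few barcodes yet weigh as much as the others in these means and SDs. In 2-IC replicate 2, cluster 0, TBRC-like and MedRC-like cells had 7, 8 and 9 barcodes, and cluster 5 had 5 in the 1-IC library. Cxcl12 in cluster 0 was 3892 CPM in those 7 barcodes, against 9068 CPM in 2-IC replicate 1 and 8704 CPM in the 1-IC library.

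**Figure D2:**
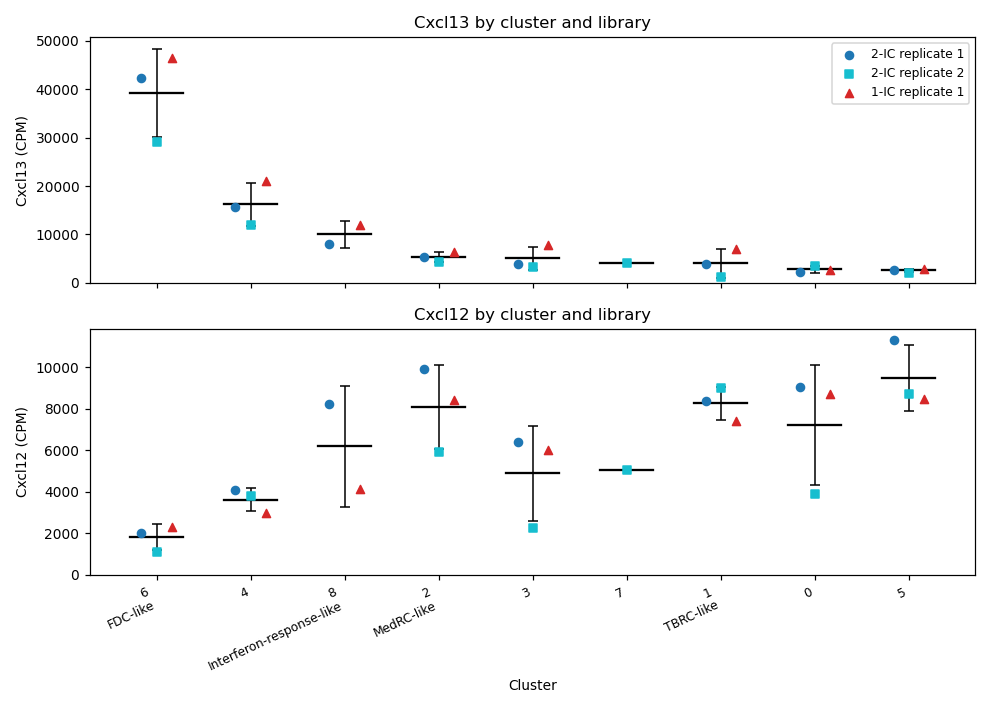
CPM of Cxcl13 (upper panel) and Cxcl12 (lower panel) in summed counts of each cluster, ordered by Cxcl13, with 1 symbol per library that had at least 5 barcodes, the mean as a bar and the SD over libraries as a whisker (none for cluster 7, which held 1 library). The FDC-like cluster and cluster 4 stand highest for Cxcl13, at means of 39229 and 16236 CPM, and lowest for Cxcl12, at 1799 and 3613 CPM.

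Ackr3 was at most 14.5 ± 8.74 CPM (SD, n = 3), in the FDC-like cluster, from 18, 2 and 5 UMIs. TBRC-like cells held 33, 0 and 3 UMIs and cluster 4 held 16, 1 and 0 UMIs. The SD was over 60% of the mean in each of these clusters, and an order of clusters could not be read from so few counts.

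To find the genes that follow the Cxcl13 to Cxcl12 ratio, counts were summed over Cxcl13-dominant and over Cxcl12-dominant barcodes of each library and compared in edgeR with the library as a block. Cxcl13 and Cxcl12, which chose the classes, were left out of the table and of the totals. Median depth was 6712.5, 15457 and 8410 UMIs in the Cxcl13-dominant class and 5267, 15401 and 6569.5 UMIs in the Cxcl12-dominant class, the first deeper in all 3 libraries, though barely in 2-IC replicate 2. The nuclear RNA Malat1 made up a median of 4.02%, 6.63% and 9.13% of UMIs in the first and 2.89%, 5.74% and 7.53% in the second, and the part of these differences in the results was not tested. Of 8888 genes tested, 932 (10.5%) were higher and 1152 (13%) lower in the Cxcl13-dominant class at an adjusted p under 0.05, and 1992 of these 2084 had the same direction in every library. For 825 of them the mixed class lay between the others in every library. Without TMM scaling the median log2 fold change over all genes moved from -0.0071 to 0.14, and the split became 1408 higher and 883 lower, so directions of small changes are relative to the TMM scale. The 2 chemokines themselves differed between the classes by construction and carry no test.

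The genes most like the ratio were named from single barcodes. Among 2128 genes read in at least 10% of thinned barcodes of each library, Spearman's rho with the log ratio was highest for Mfge8 (0.52, 0.38 and 0.63 in the 3 libraries), Clu, Enpp2, Pcdh15 and Sulf1, and lowest for Dcn (-0.52, -0.38 and -0.61), Dpt, Gsn, Clec3b and C3. The median rho was 0.46 for Clu, 0.36 for Enpp2, 0.35 for Pcdh15 and 0.35 for Sulf1. On the other side it was -0.45 for Dpt, -0.44 for Gsn, -0.44 for Clec3b and -0.42 for C3. Barcodes of a library share its depth and free RNA, so these values carry no p.

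The summed counts of the same genes moved in steps over the classes. Since these genes were picked by their rho with the ratio in the same barcodes, their steps, fold changes and p-values are no independent support. Mfge8, a bridge protein by which FDCs mark apoptotic cells for uptake, had 14182, 8117 and 9643 CPM in the Cxcl13-dominant class, 4023, 2504 and 3073 CPM in the mixed class and 2458, 1830 and 1892 CPM in the Cxcl12-dominant class. The classes did not overlap over libraries (log2 fold change 2.20 ± 0.10 SE, adjusted p = 1.64e-10), as for 2031 (22.9%) of the 8888 genes tested. Clu, a secreted chaperone abundant in FDCs, rose by 1.94 ± 0.09 (adjusted p = 3.47e-10), and Enpp2, which makes lysophosphatidic acid, by 1.06 ± 0.10 (adjusted p = 4.97e-07). Sulf1, an extracellular enzyme that removes 6-O sulfates from heparan sulfate, had 534, 632 and 346 CPM in the Cxcl13-dominant class against 36.1, 65.7 and 32.6 CPM in the Cxcl12-dominant class. Its fold change of 3.40 ± 0.14 (adjusted p = 8.39e-11) was the largest of these 5.

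In the other direction, Dcn, the collagen-binding proteoglycan decorin, had 3383, 5245 and 2871 CPM in the Cxcl13-dominant class and 11938, 10516 and 10826 CPM in the Cxcl12-dominant class, a log2 fold change of -1.72 ± 0.15 (adjusted p = 2.55e-07). Dpt, a further matrix protein, fell by 3.44 on the log2 scale (adjusted p = 7.68e-11) and Clec3b fell by 3.55 (adjusted p = 5.28e-10). Complement C3 had 4720, 4644 and 4555 CPM against 10866, 10896 and 8858 CPM and fell by 1.28 (adjusted p = 4.38e-08).

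**Figure D3:**
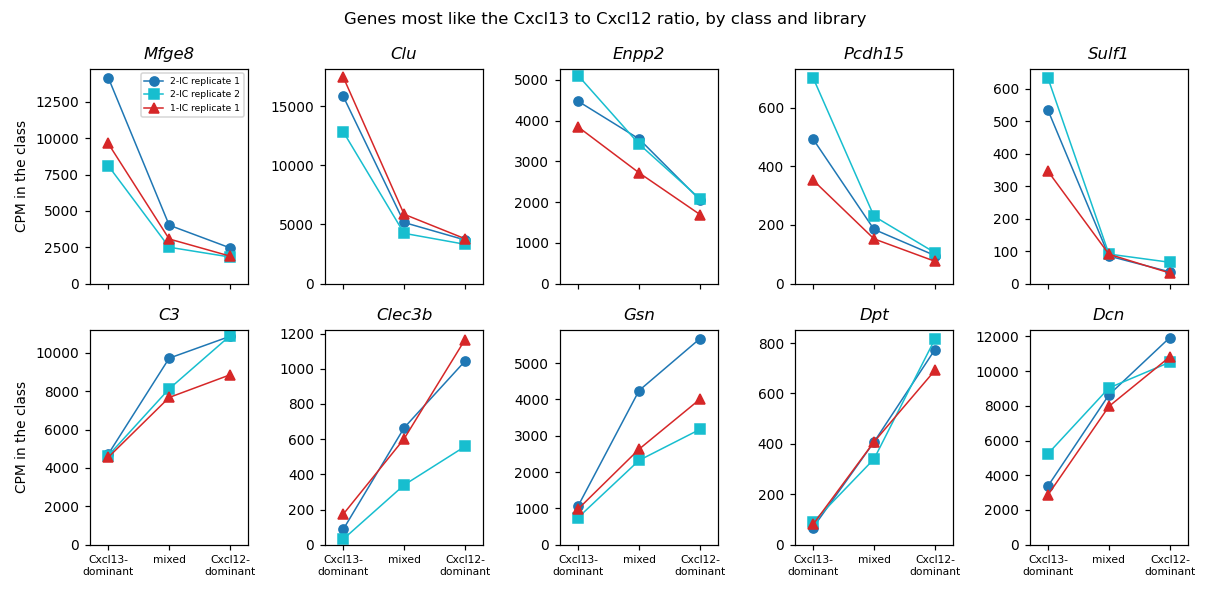
CPM in the Cxcl13-dominant, mixed and Cxcl12-dominant classes for the 5 genes with the highest and the 5 with the lowest median rho with the ratio, 1 line per library, on linear axes that start at 0. In the upper row every line steps down from the Cxcl13-dominant to the Cxcl12-dominant class, and in the lower row every line steps up. The genes were picked by rho in the same barcodes, so these steps follow from the choice.

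The largest rises among genes called in the same direction in every library and with at least 50 CPM in the higher class were those of Syt1, Wif1, Cr2, A230065H16Rik, Madcam1, Tcerg1l, Stra6, Slc1a2, Art2a-ps and Tesc. Syt1, the calcium sensor of vesicle release, had 134, 103 and 144 CPM in the Cxcl13-dominant class and 0.322, 0.403 and 0 CPM in the Cxcl12-dominant class, where 2 UMIs were read in all (adjusted p = 8.39e-11). Cr2 had 561, 385 and 359 CPM against 5.80, 2.02 and 0 CPM, a log2 fold change of 6.81 ± 0.23 (adjusted p = 1.84e-11). Madcam1, an adhesion molecule known from FDCs and marginal reticular cells, had 238, 146 and 235 CPM against 1.29, 0.806 and 10.9 CPM (6.51 ± 0.30, adjusted p = 2.28e-10). These levels sat almost wholly in the Cxcl13-dominant class, since the mixed class held 3.80, 1.97 and 6.75 CPM of Madcam1. Wif1, a secreted Wnt inhibitor, had 54.3, 150 and 53.7 CPM against 0.645, 0.806 and 0 CPM (adjusted p = 5.65e-10). Syt1, Cr2, Madcam1 and Wif1 passed the count filter through their Cxcl13-dominant sums. Their direction was therefore largely set by the filter, and their p-values are no independent support for it.

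The largest falls were those of Olfml2b, Cxadr, Ccl11, Gdf10, F3, Gm9780, Fgf7, Vit, Ogn and Scn7a. Ccl11, the eosinophil chemokine eotaxin, had 27.1, 55.2 and 31.9 CPM in the Cxcl13-dominant class, 316, 393 and 289 CPM in the mixed class and 659, 669 and 663 CPM in the Cxcl12-dominant class (-4.33 ± 0.18, adjusted p = 8.39e-11). It was level over libraries at the Cxcl12 end. Cxadr, a cell junction protein, fell by 4.36 on the log2 scale (adjusted p = 2.45e-09), F3, tissue factor, fell by 3.99 (adjusted p = 7.08e-09) and Fgf7, a growth factor for epithelia, fell by 3.80 (adjusted p = 1.19e-07).

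Lists of related genes were counted against the shares over all genes, 10.5% higher and 13% lower. The lists were drawn up with earlier results of these data known, so their counts describe them and are no independent support. Of 16 other chemokines, 12 were tested, 0 were higher and 9 lower in the Cxcl13-dominant class, with a median log2 fold change of -2.22 against -0.0071 over all genes. Ccl21a and Ccl19, which bind CCR7 and guide T cells and dendritic cells, were among them. Ccl21a had 483, 2558 and 1467 CPM in the Cxcl13-dominant class and 7354, 6035 and 13792 CPM in the Cxcl12-dominant class (-2.96 ± 0.35, adjusted p = 6.95e-06), and its reads cannot be split from those of near-identical copies. Ccl19 fell by 1.61 (adjusted p = 1e-07) and the neutrophil chemokine Cxcl1 fell by 3.13 (adjusted p = 2.97e-07). In the alternatives run, 0 or 1 of the list was higher and 7 to 11 were lower.

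Of 19 FDC genes tested, 14 were higher and 4 lower, with a median of 1.65. The 14 were Cr2, Mfge8, Madcam1, Coch, Clu, Cd200, Fcgr2b, Bst1, Fcer2a, Tnfsf11, Prnp, Enpp2, Sox9 and Vcam1. At least Cr2 and Madcam1 among them passed the count filter through the Cxcl13-dominant sums, so the count of 14 rests partly on the filter. Fcgr2b, Fcer2a and Cd200 were below the filter once barcodes with Cr2 were left out, so their rises may rest on it too. The 4 lower ones were C4b, the B cell survival factor Tnfsf13b (BAFF), Il6 and Ggt5. The list is not specific to FDCs on either side. Of the higher genes, Madcam1, Tnfsf11, Bst1 and Enpp2 were also the markers of marginal reticular cells when clusters were named. The adhesion molecule Vcam1 had 1517, 1375 and 1447 CPM against 927, 881 and 674 CPM (0.66 ± 0.11, adjusted p = 0.000184), among the smallest of the rises. In the alternatives 12 to 14 were higher and 3 or 4 lower.

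Genes of fibrillar matrix ran the other way as a group: 0 of 19 tested were higher and 17 lower (median -1.08), and in the alternatives none was higher and 11 to 17 were lower. Besides Dcn, the matricellular protein Sparc had 1307, 1392 and 1368 CPM against 1953, 2092 and 2068 CPM (-0.73 ± 0.10, adjusted p = 1.95e-05), and the proteoglycan Bgn fell by 0.73 (adjusted p = 5.95e-05). Several of these genes, Sparc and Bgn among them, were also used to call a barcode stromal. Immediate early genes respond within minutes to growth factors and to tissue dissociation. Of the 16 genes on their list, which also holds the heat shock genes Hspa1a and Hspa1b, 1 (Hspa1b) was higher and 15 were lower. Fos had 3333, 3202 and 3907 CPM against 8379, 6157 and 8471 CPM (-1.27 ± 0.11, adjusted p = 1.43e-07), Jun fell by 1.00 (adjusted p = 7.33e-07) and Jund fell by 1.02 (adjusted p = 1.57e-06). The part of tissue handling in these values was not tested.

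Reticular cells of bone marrow that are rich in CXCL12 have their own known genes, and of 11 tested here 2 (Vcam1 and Kitl) were higher in the Cxcl13-dominant class and 8 lower. Gas6, a ligand of TAM receptors, had 189, 296 and 260 CPM against 1416, 1322 and 1533 CPM (-2.69 ± 0.14, adjusted p = 9.27e-10). The leptin receptor Lepr had 354, 321 and 294 CPM against 937, 793 and 620 CPM (-1.42 ± 0.11, adjusted p = 6.88e-08). Of 10 T zone reticular genes, 2 (Dll4 and Bmp3) were higher and 6 lower. Il33 was not called (-0.45 ± 0.18, adjusted p = 0.0946). In the Cxcl13-dominant class it had 287, 1207 and 275 CPM and in the Cxcl12-dominant class 493, 926 and 426 CPM, so that it was higher in the first class in 2-IC replicate 2 but lower there in each of the others. Without 2-IC replicate 2 it fell by 0.91 (adjusted p = 1.05e-12), and without shared barcodes its log2 fold change was -0.48 (adjusted p = 0.0108).

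Genes of the lymphotoxin and NF-κB pathway, which acts upstream of Cxcl13, were split: of 21 tested, 6 were higher and 6 lower, with a median of 0.065. Higher were Traf1, Birc2, Tnfaip3, Relb, Nfkb2 and Nfkbie, and lower Nfkbiz, Nfkbia, Tnfrsf1a, Birc3, Ltbr and Tnfrsf12a. Without 2-IC replicate 1, Nfkbie (adjusted p = 0.369), Birc3 (adjusted p = 0.224) and Tnfrsf1a (adjusted p = 0.0541) were no longer called, and in DESeq2 neither these 3 nor Nfkb2, Ltbr and Tnfrsf12a were. Relb and Nfkb2 encode the subunits of the non-canonical dimer. Relb had 158, 123 and 123 CPM in the Cxcl13-dominant class and 62.9, 87.5 and 78.3 CPM in the Cxcl12-dominant class (0.75 ± 0.15, adjusted p = 0.00144), and without 2-IC replicate 1 its adjusted p was 0.102. Nfkb2 had 139, 166 and 101 CPM against 75.1, 108 and 63.1 CPM (0.60 ± 0.13, adjusted p = 0.00199). The adaptor Traf1 rose the most, from 12.9, 21.4 and 21.8 CPM to 57.9, 55.2 and 55.4 CPM (1.57 ± 0.22, adjusted p = 3.89e-05). The lymphotoxin receptor Ltbr had 51.3, 41 and 35.3 CPM against 59.3, 62.9 and 41.3 CPM (-0.50 ± 0.17, adjusted p = 0.0456) and was no longer called when any 1 library was left out. In the fit without the library block, 1 list member was higher and none was lower.

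Of 16 stromal transcription factors tested, 6 were higher (Meox1, Sox9, Spib, Tbx3, Foxf1 and Runx1) and 4 lower (Klf4, Klf2, Ebf1 and Nr2f1). Meox1, a homeobox factor, had 39.6, 80.7 and 35.3 CPM in the Cxcl13-dominant class and 5.80, 4.03 and 4.35 CPM in the Cxcl12-dominant class (3.29 ± 0.32, adjusted p = 8.22e-07). Meox1 passed the count filter through its Cxcl13-dominant sums, so its direction was largely set by the filter. The count of 6 higher factors thus rests partly on the filter. Tbx3 and Runx1 were below the filter once barcodes with Cr2 were left out, so their rises may rest on it too. Sox9 rose by 1.62 ± 0.20 (adjusted p = 9.67e-06). Klf2, a flow- and quiescence-associated factor, had 262, 137 and 180 CPM against 1449, 517 and 1703 CPM (-2.69 ± 0.18, adjusted p = 1.07e-08), and its partner Klf4 fell by 2.33 (adjusted p = 1.05e-08). Foxf1 (0.89 ± 0.21, adjusted p = 0.00432) and Nr2f1 (-0.55 ± 0.14, adjusted p = 0.00765) lost their calls without 2-IC replicate 1, at adjusted p = 0.301 and 0.0704. In DESeq2, Foxf1 (adjusted p = 0.125), Nr2f1 (adjusted p = 0.0853) and Runx1 (adjusted p = 0.23) were not called.

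Heparan sulfate holds chemokines at the cell surface, and of 20 genes of its synthesis, core proteins and of chemokine processing 4 were higher (Sulf1, Gpc1, Sdc3 and Hs6st1) and 9 lower. The protease Mmp14 had 140, 245 and 175 CPM against 161, 341 and 241 CPM (-0.51 ± 0.12, adjusted p = 0.00392), and Ctsb was not called (-0.24 ± 0.11, adjusted p = 0.134). Of 10 contractile and mural genes, 4 were higher (Myh11, Pdlim3, Acta2 and Tpm2) and 3 lower (Notch3, Myl9 and Tagln). Acta2, smooth muscle actin, had 441, 293 and 544 CPM against 257, 141 and 274 CPM (0.78 ± 0.12, adjusted p = 9.75e-05), and the pericyte gene Rgs5 was not called (0.10 ± 0.11, adjusted p = 0.57).

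**Figure D4:**
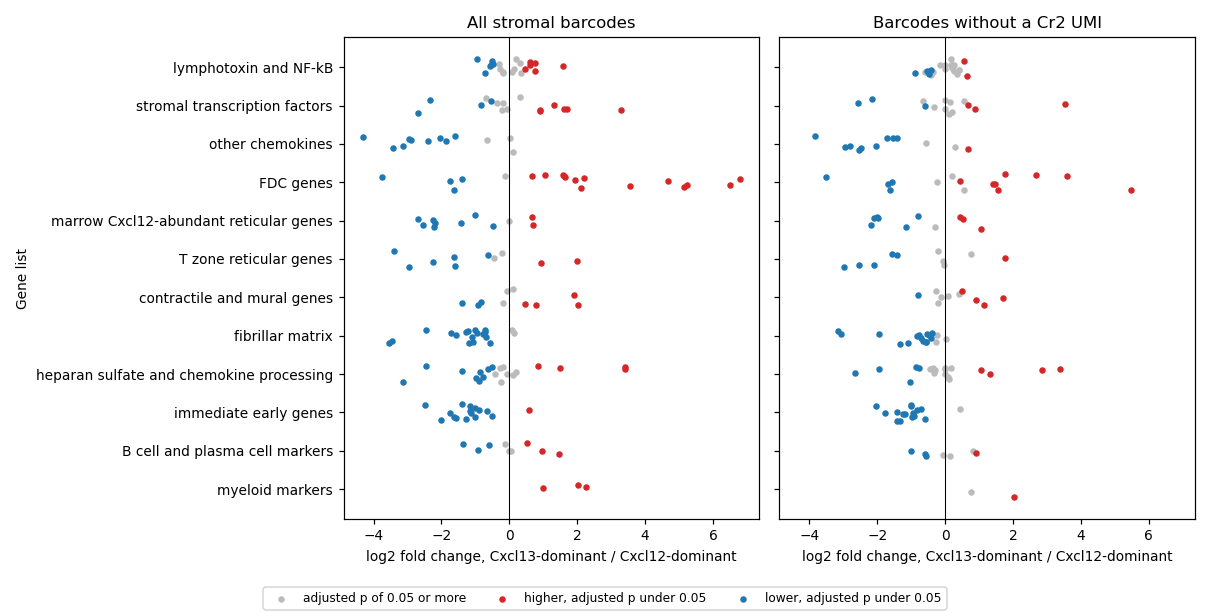
Log2 fold change of each tested gene between the Cxcl13-dominant and Cxcl12-dominant classes, by gene list, over all stromal barcodes (left) and over barcodes without a Cr2 UMI (right). Red and blue points are genes higher or lower in the Cxcl13-dominant class at an adjusted p under 0.05, and grey points are not called. FDC genes lie mostly to the right (14 of 19 higher, left panel) and fibrillar matrix, other chemokines and immediate early genes to the left.

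Genes listed as markers of other cells moved partly with the ratio. Over the list of myeloid markers, the summed level was 189, 108 and 113 CPM in the Cxcl13-dominant class and 77.1, 20 and 28 CPM in the Cxcl12-dominant class. Of its 10 genes 3 were tested and all 3 were higher: Lyz2 (2.04 ± 0.29, adjusted p = 5.09e-05), Csf1r (2.26 ± 0.44, adjusted p = 0.00104) and Coro1a (0.98 ± 0.33, adjusted p = 0.0389). All 3 passed the count filter through the Cxcl13-dominant sums. Csf1r, for example, had 16, 11 and 9 UMIs there against 8, 6 and 1. Their shared direction was therefore largely set by the filter, and the other genes of the list were below it. Coro1a was not called without 2-IC replicate 2 (adjusted p = 0.104) or in DESeq2 (adjusted p = 0.14), and Lyz2 had a log2 fold change of 0.076 (adjusted p = 0.931) with no filter on contaminant genes. Itgax had 0 UMIs in the Cxcl13-dominant class of every library. B cell and plasma cell markers summed to 1885, 718 and 1571 CPM against 1439, 665 and 725 CPM, with 3 of 9 tested genes higher (Cd74, Cd52 and H2-Eb1) and 3 lower (Igkc, Jchain and Ighm), while the B cell surface gene Ms4a1 had 5, 2 and 3 UMIs against 7, 0 and 0 UMIs. Cd74 rose by 0.97 ± 0.12 (adjusted p = 1.65e-05), H2-Ab1 was not called (-0.12 ± 0.14, adjusted p = 0.593), and Igkc fell by 0.61 ± 0.13 (adjusted p = 0.00264), a call lost without 2-IC replicate 1 (adjusted p = 0.114). T cell markers summed to at most 18.4 CPM and endothelial markers to at most 16.6 CPM in any class sum, and none was tested. The part of RNA from other cells in the results was not tested, nor whether stromal cells made some of these RNAs themselves. The study reported higher MHC-II related genes in a cluster of its FDCs. Without barcodes that held 2 or more of 7 leukocyte genes, 741 of 7645 genes tested were higher and 880 lower. Of the 2084 calls 1560 were kept. That set can still hold free RNA and barcodes with 1 such gene.

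The same comparison in barcodes without a Cr2 UMI asked which genes followed the ratio outside Cr2+ cells, although a cell can express Cr2 with no UMI read. It held 116, 28 and 47 Cxcl13-dominant and 515, 154 and 68 Cxcl12-dominant barcodes. Of 7376 genes tested, 459 (6.22%) were higher and 648 (8.79%) lower, and 1080 of these had the same direction in every library. The barcodes overlap those of the full comparison, so the values below are set beside it and were not tested for a difference. Without TMM the split was 648 higher and 472 lower.

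Here the largest rises were those of Wif1, Madcam1, Mansc4, Draxin, Hamp, Ttc6, Meox1, Il4i1, Sulf1 and Chst8. Madcam1 had 121, 75.7 and 104 CPM in the Cxcl13-dominant class and 1.33, 0.82 and 10.9 CPM in the Cxcl12-dominant class (5.48 ± 0.39, adjusted p = 1.22e-07). It again passed the count filter through the Cxcl13-dominant sums, which largely set its direction. Sulf1 had 508, 614 and 345 CPM against 36, 65.6 and 32.6 CPM (3.39 ± 0.15, adjusted p = 2.73e-09), nearly its values over all barcodes. Enpp2 rose by 1.40 ± 0.11 (adjusted p = 1.97e-07), Mfge8 by 1.77 ± 0.11 (adjusted p = 5.28e-08) and Clu by 1.57 ± 0.11 (adjusted p = 9.19e-08). Meox1 rose by 3.54 ± 0.32 (adjusted p = 1.24e-06), and Hamp, the iron hormone hepcidin, by 4.03 ± 0.38 (adjusted p = 2.14e-06). Like Madcam1, Wif1 and Meox1 passed the count filter through the Cxcl13-dominant sums, which largely set their direction. The same may hold for Hamp, so these p-values are no independent support.

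The largest falls were those of Stmn2, Olfml2b, Cxadr, Ccl11, Gdf10, Ogn, F3, Gm9780, Fgf7 and Matn2. Stmn2, a regulator of microtubules, had 2.36, 1.99 and 0 CPM (3 UMIs in all) in the Cxcl13-dominant class and 114, 84.4 and 56.5 CPM in the Cxcl12-dominant class (adjusted p = 7.37e-08). It passed the count filter through the Cxcl12-dominant sums, so its direction was largely set by the filter. Ccl11 had 35.5, 75.7 and 44.1 CPM against 661, 660 and 663 CPM (-3.85 ± 0.20, adjusted p = 7.24e-09). Of 12 other chemokines tested 1 (Ccl9) was higher and 9 were lower. Of 18 matrix genes 0 were higher and 15 lower. On the immediate early list it was 0 and 15 of 16, and of 15 FDC genes 8 and 4. The 8 included Madcam1, Tnfsf11, Enpp2 and Bst1, the marginal reticular cell markers. Cr2, Fcer2a, Fcgr2b and Cd200, which were higher over all barcodes, were not tested here. In the alternatives 5 to 16 matrix genes were lower and none was higher. Of the immediate early list 6 to 15 were lower and 0 or 1 higher there, and of the FDC genes 3 or 4 lower and 7 to 9 higher. Of 21 lymphotoxin and NF-κB genes 2 (Birc2 and Nfkb2) were higher and 4 lower, and Relb was not among them. Of these, Nfkb2, Birc3 and Tnfrsf1a lost their calls without 2-IC replicate 1 (adjusted p = 0.135, 0.381 and 0.289) and in DESeq2 (adjusted p = 0.229, 0.419 and 0.489), and Tnfrsf1a also without the 1-IC library (adjusted p = 0.125). Of 14 transcription factors, Meox1, Spib and Foxf1 were higher and Klf4, Klf2 and Ebf1 lower. Spib and Foxf1 lost their calls without 2-IC replicate 1 (adjusted p = 0.0696 and 0.548) and in DESeq2 (adjusted p = 0.102 and 0.365). The marrow list gave 3 higher and 6 lower of 10, the T zone list 1 and 5 of 10, the contractile list 4 and 1 of 10, and the heparan sulfate list 4 and 5 of 19. The myeloid list gave 1 (Lyz2) and 0 of 2, and the B cell and plasma cell list 1 (Cd74) and 3 of 7. With no filter on contaminant genes, neither Lyz2 (adjusted p = 0.807) nor Cd74 (adjusted p = 0.443) was called. Igkc and H2-Ab1, among the lower ones, lost their calls there too (adjusted p = 0.0732 and 0.123).

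Ackr3 itself was below the count filter of both ratio comparisons and was not tested there. Over the Cxcl13-dominant, mixed and Cxcl12-dominant classes it had 22, 31 and 32 UMIs in 2-IC replicate 1, 2, 5 and 14 UMIs in 2-IC replicate 2, and 5, 2 and 1 UMIs in the 1-IC library. In CPM this was 15.6, 8.94 and 10.2, then 2.77, 2.43 and 5.59, then 8.05, 2.66 and 2.15, an order that differed between libraries. Barcodes with an Ackr3 UMI at 2000 UMIs numbered 22, 3 and 1. Their Cxcl13 was 10957, 1288 and 17017 CPM, against 9378, 5172 and 16356 CPM in barcodes without one, and their Cxcl12 was 6544, 8440 and 0 CPM against 7501, 6464 and 5847 CPM. Neither chemokine differed with Ackr3 in edgeR (log2 fold change -1.53 ± 1.86 and -1.41 ± 2.12, adjusted p = 1 for both), and errors of this size leave changes of several fold in either direction undetectable.

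Of 8329 genes tested against Ackr3, 1 (0.012%) was higher and 0 were lower in edgeR, with 243 at an unadjusted p under 0.05 and 0 calls in DESeq2. The 1 gene, Epsti1, an interferon-induced gene, had 151, 0 and 0 CPM in barcodes with Ackr3 and 13.4, 7.44 and 12.4 CPM in those without, so its call rested on 22 UMIs of 1 library. When barcodes were split on unthinned counts, 55 genes were higher and 45 lower, but the barcodes with Ackr3 were then deeper, at a median of 8212, 21333 and 11542 UMIs against 4676, 14936 and 6586. In single barcodes the gene most like Ackr3, Pdlim1, had a rho of 0.057, 0.15 and 0.17 in the 3 libraries, and such weak values in sparse counts name no pattern.

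The cognate receptors of the chemokines were scarce in these cells. Cxcr4, the signalling receptor of CXCL12, had 89, 24 and 14 UMIs in the 3 libraries, close to the 92, 21 and 8 UMIs of Ackr3. Cxcr5, the receptor of CXCL13, had 1 UMI in all, Ackr4 had 0 and Ackr1 had 8. Ccr7 had 59, 7 and 0 UMIs and Gpr183, an oxysterol receptor that positions B cells, 17, 2 and 0. None of the 9 receptors passed the count filter. Cxcr4 and Ccr7 are abundant in lymphocytes, and the source of these few UMIs was not tested.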

How the data were processed

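The authors sorted Cxcl13-TdTomato+ PDPN+ LN cells, prepared 10x Genomics 3′ libraries, and deposited raw UMI counts per gene and barcode, without normalization. Per the file headers, Cell Ranger 5.0.0 made them (the study's methods name an earlier version), on GRCm38 with Ensembl annotation. Whether reads of the reporter transgene count as Cxcl13 is not given in the sources used here. The short descriptions of the 2-IC libraries conflict, and groups follow the sample titles.

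The members and gene lists were chosen with earlier results of these data known. Filters on genes, mitochondrial UMIs and 13 contaminant genes follow the study, and the stromal gate was added. Rows of the same symbol were summed. Libraries held 3790, 1029 and 667 barcodes and 20607903, 12788101 and 3766526 UMIs, and shares carry exact binomial 95% intervals. Clusters were drawn in Seurat 5.3.0 (2000 variable genes, 10 principal components, resolution 0.8, no integration). Scrublet in scanpy 1.11.5 called 17 doublets of 4513 barcodes, under the share at which such a caller can be relied on, and none was removed. Counts summed per library and class were tested in edgeR 4.0.16 (R 4.3.3) with filterByExpr, TMM, the quasi-likelihood test and Benjamini-Hochberg adjustment over all genes tested, with DESeq2 1.42.0 as an alternative. A gene could pass filterByExpr through the sums of 1 class alone, and its direction was then largely set by the filter. The library was a block, since the sums being compared were drawn from 1 suspension each. The p-values rest on how far the difference between classes varied over these 3 libraries, with the spread of each gene drawn toward that of all genes tested. The smallest p-values depend on this pooling over genes and do not measure spread over 3 libraries alone. The block takes out differences in level between libraries. The procedure was also run on simulated counts, drawn independently at a fixed spread and with no split of barcodes. That run therefore says nothing about how the barcodes were split into classes.

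The genes named are the 3 members, the 10 largest rises and falls per comparison among calls whose libraries all moved one way, with at least 50 CPM in the higher class, the 3 most abundant tested genes of each list, every called gene of the receptor, NF-κB and transcription factor lists, and the 5 genes most and least like the ratio. Names that only fill out a count, the leading genes of clusters, Epsti1, Cxcr4 and the other receptors were chosen after their values were seen.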

Additional observations from a re-analysis of the deposited data

Results flagged for a closer look

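Tnfrsf12a, a TNF receptor family member, moved one way in the 2-IC libraries and the other way in the 1-IC library. The log2 ratio of its CPM in the Cxcl13-dominant over the Cxcl12-dominant class was -0.25 and -0.93 in 2-IC replicates 1 and 2 and 1.95 in the 1-IC library. Its level was low in that library (8.39 and 2.17 CPM), and over all libraries its call (adjusted p = 0.048) was lost without 2-IC replicate 2, at adjusted p = 0.728. Nr2f1, a nuclear receptor, had log2 ratios of -0.44, -0.76 and 0.062 in the same order. In barcodes without Cr2, Foxf1 had log2 ratios of 1.52 and 0.93 in the 2-IC libraries and -0.22 in the 1-IC library. With 1 library in the 1-IC group, none of these differences was tested.

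Both chemokines were also read in barcodes left out for a count of a contaminant gene although they held stromal genes, 1191, 253 and 84 in the 3 libraries. Their Cxcl13 was 5684, 4267 and 8130 CPM and their Cxcl12 was 3698, 3970 and 4058 CPM, in each library below the level in the stromal barcodes used.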

How the results depend on the processing

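Without the library as a block, 369 genes were higher and 404 lower with the ratio, 119 and 193 in barcodes without Cr2, and 4 higher with Ackr3 (the pairing of both sums within a library is by design). DESeq2 called 486 and 545, 196 and 314, and 0. Sums of thinned counts, with fewer genes tested, gave 426 and 463, 215 and 296, and 0. Without TMM the counts were 1408 higher with the ratio, and 12 and 3 with Ackr3. With no filter on low counts 977 were lower without Cr2 and 4 higher with Ackr3. Leaving out 1 library gave 577 to 1090 higher and 666 to 1244 lower with the ratio, the lowest of each without 2-IC replicate 1, 224 to 565 and 344 to 815 without Cr2, and 0 to 13 and 0 to 7 with Ackr3. The Ackr3 counts were also 64 and 37 with no filter on contaminant genes, 55 and 45 on the unthinned split, and 0 higher both with no stromal gate and without barcodes holding RNA of other cells. Among genes called both in the main comparison over all barcodes and in an alternative, 1 had the opposite direction, under a 2-fold limit. Igkc, lower in the main comparisons, had log2 fold changes of 0.26 (adjusted p = 0.461) and, without Cr2, 0.46 (adjusted p = 0.286) under that limit, no longer called, and the cause was not tested. Of the levels, mean Cxcl12 was 5305 CPM with no filter on contaminant genes, and 90.1% of barcodes held both chemokines in unthinned counts.

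The limits are few libraries, 1 of them alone in its group, a gate set on Cxcl13, depth that differs 3-fold between libraries, and Ackr3 counts too low for a test.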
